A study of Bos taurus with 12 samples.

Results

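The 10 genes described here are 7 cathepsins (CTSB, CTSC, CTSD, CTSH, CTSK, CTSS and CTSZ) and 3 cystatins (CST3, CST6 and CSTB), out of 17796 named genes on a custom bovine Agilent array. They were taken by symbol from the annotation of the array, without a filter on their values. The list was chosen with earlier results of these data known. All 10 were found, on 11 transcripts covered by 30 probe names. Endometrium was biopsied at Day 15 after the cycles had been synchronised, and the RNA of each female was hybridised in 1 colour to its own array. The old females (OF, n = 4) were 13 to 14 years old and nulliparous, and the young females (YF, n = 4) were 4 to 5 years old and primiparous, so the effects of age and parity cannot be told apart. All OF and YF were Holstein cattle cloned from the somatic nuclei of 1 donor cow, the YF had calved more than a year before, and tissue came from between the caruncles of the uterine horn on the side of the corpus luteum. A further group of contemporary cows is named in the labels (n = 3, after the submitters left out cow 1111), whose age, parity and relation to the clones are not given in the sources used here. The question put to the clones was how the endometrium of old and young cattle differs at the stage when it responds to a conceptus.

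Cathepsins are proteases of the lysosome that are also released from cells. Most of them are cysteine proteases, whereas CTSD is an aspartic protease. Cystatins are tight-binding inhibitors of the cysteine cathepsins, of which CST3 and CST6 are secreted and CSTB stays mainly inside the cell. In ruminants the uterine epithelium and glands release such enzymes and inhibitors into the histotroph, the secretion that feeds the conceptus before it attaches. Some genes of these families are known there as targets of progesterone and of interferon tau.

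Values are log2 intensities relative to the 75th percentile of the array, which lay between 968 and 1597 intensity units over the 12 arrays. Between 71.6% and 74.9% of probes were well above background on an array, and 0 were saturated. One library stood apart. On the first principal component of 18682 transcripts (40.8% of the variance) OF 2258 scored -110, far from the range of -30.0 to 34.3 that held the other 10 arrays compared. The markers of smooth muscle (11 of 11 on the array well above background) summed to a log2 level of 10.04 in OF 2258 and 8.54 in OF 0234, against 4.61 to 6.07 in the other females. Of the markers of endometrium, 11 of 11 epithelial and 7 of 7 stromal ones were well above background on all 11 arrays. Detection alone does not show how much of each tissue a biopsy held. The epithelial markers summed to 3.94 in OF 2258 and 4.70 in YF 1069, and to between 5.80 and 6.82 in the others. The difference between OF and YF is therefore given with and without OF 2258 for each member. In bulk tissue, fewer cells of a type and less RNA per cell cannot be told apart. The arrays lay on 2 slides, slide 1 with 1 OF and 2 YF and slide 2 with 3 OF, 2 YF and the 3 contemporary cows.

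No cathepsin and no cystatin differed between OF and YF after adjustment over all transcripts. CTSB, CST3 and CSTB had nearly equal means in both groups, CTSD had a somewhat higher mean in OF, and the other 6 had lower means in OF, with the widest gap for CST6 and no overlap for CTSC alone. With limma, 0% of the 19755 transcripts tested, members included, were below 0.05 after adjustment, and 2.42% were below it before adjustment, against 0 of the 10 members. The mean was higher in OF for 3 members and lower for 7, with a median log2 difference of -0.13 against 0.01 over all transcripts tested. The groups did not overlap for 1 member, CTSC, and for 1.53% of all transcripts tested. FCROS, the fold change rank statistic of the study's methods, called 1 member lower in OF, CST6, and 4.94% of the 26323 transcripts.

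**Figure D1:**
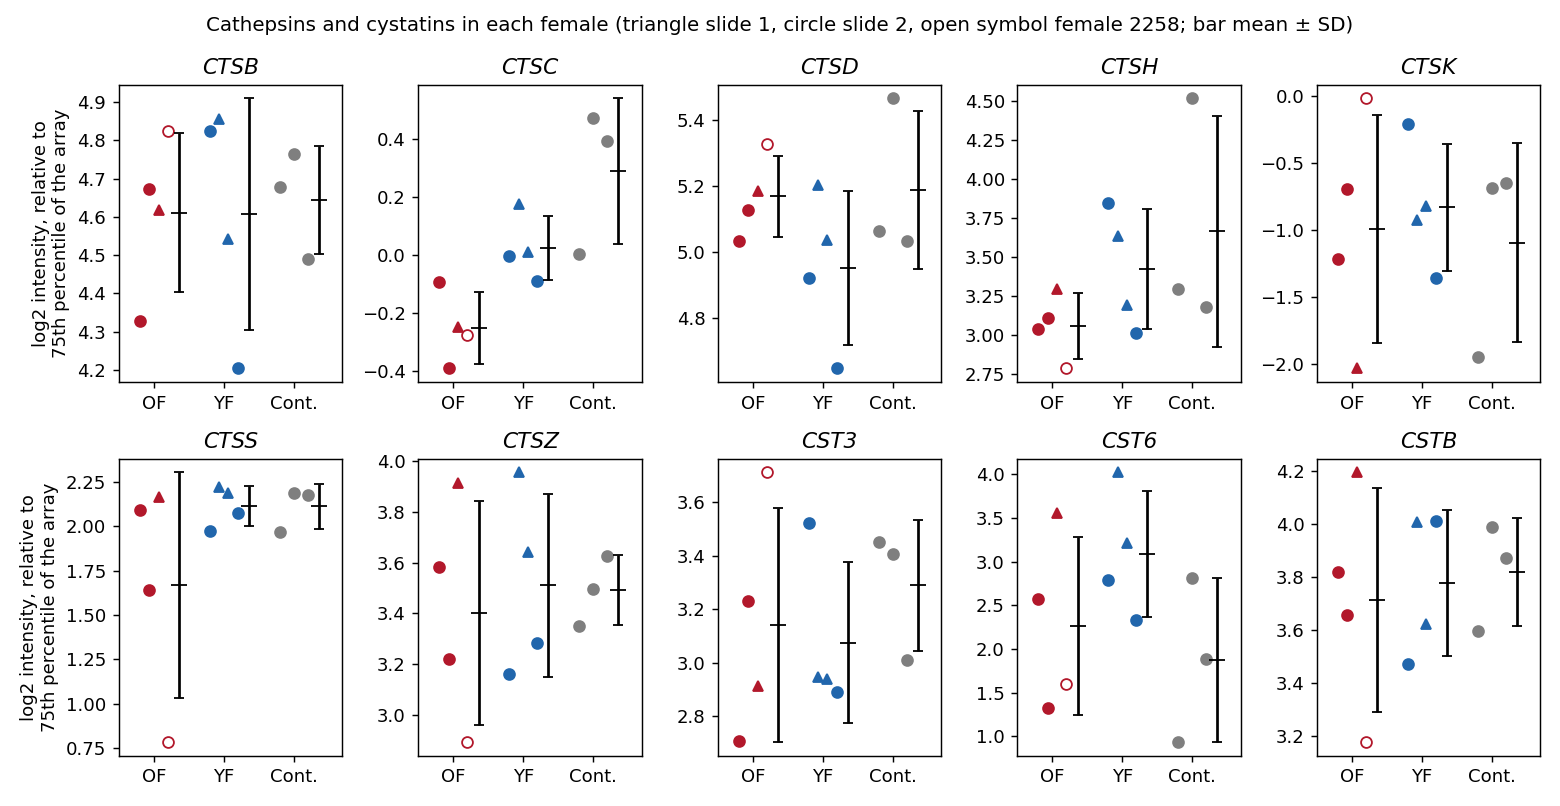
Level of each of the 10 genes in each female, as log2 intensity relative to the 75th percentile of the array (vertical axes differ between panels), in OF (n = 4), YF (n = 4) and contemporary cows (Cont., n = 3). Triangles are arrays of slide 1, circles those of slide 2, the open circle is OF 2258, and bars show mean ± SD; the 4 OF lie below the 4 YF for CTSC alone.

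CTSC, cathepsin C or dipeptidyl peptidase I, cuts pairs of residues from the start of proteins and activates the granule proteases of immune cells. Its transcript ENSBTAT00000014735 lies at chr29:7433482-7473315 in the UMD3.1 assembly of the array, as do all positions below. It was read by 2 probe sequences, each spotted under 2 names, of which the first 30 bases are shown because the gap between the groups rests on them, with no part marked.
CTSC probe 1: gtgagagacgaagtaatggattttgctaat
CTSC probe 2: cgacagaaccacacaggcttatttttaaat
The values were -0.09, -0.39, -0.25 and -0.28 in OF 0233, 0234, 0245 and 2258, and 0.00, 0.17, 0.01 and -0.09 in YF 1069, 1070, 1072 and 1127. All OF lay below all YF, but the highest OF and the lowest YF were only 0.0022 apart. The OF averaged -0.25 ± 0.12 (SD, n = 4) and the YF 0.02 ± 0.11 (SD, n = 4), so that OF lay -0.28 from YF on the log2 scale (SE 0.13), a fold of 0.826. The exact permutation test gave p = 0.0286, the smallest that 4 against 4 allows, and limma p = 0.0649 before and 0.999 after adjustment. The 4 probe names each gave a lower mean in OF, by log2 differences of -0.33 to -0.23. Without OF 2258 the difference was -0.27, without OF 0234 and 2258 together -0.19, and on slide 2 alone -0.21. Mast cell markers summed to -1.44 to -0.82 in OF and to -1.42 to -0.67 in YF, with overlap. Of 4 such genes well above background, 3 had lower means in OF, with log2 differences of -1.66 for CPA3 and -1.24 for FCER1A, which did not overlap, and -0.66 for HDC, whereas KIT had a higher mean by 0.28. Without OF 2258 these differences were -1.71, -0.82, -0.92 and 0.39. The adjusted p of limma was 0.999 for each, MS4A2 was not well above background, and the part of mast cells in the CTSC result was not tested.

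CTSC was also the one member that separated contemporary cows from OF. The contemporary cows 1068, 1128 and 1129 read 0.00, 0.47 and 0.39, a mean of 0.29 ± 0.25 (SD, n = 3). All 3 lay above the 4 OF, by a log2 difference of 0.54 (SE 0.18) or 1.45-fold, with limma p = 0.0174 before and 0.912 after adjustment and exact permutation p = 0.0286. In that comparison 4.57% of 19914 transcripts passed the unadjusted threshold, 5.79% did not overlap and 0% passed after adjustment. The unadjusted call ended when cow 1128, cow 1129 or OF 0234 was left out (log2 differences of 0.45, 0.49 and 0.49), and when OF 0234 and 2258 were both left out (0.46), and held without OF 2258 (0.53). Against YF the contemporary mean was higher by 0.27 (SE 0.17), with overlap and an exact permutation p of 0.171. The order of the means was contemporary cows, YF and OF, and the 95% interval of the difference between neighbours in that order spanned 0. Macrophage markers were read beside CTSC, and their sums overlapped between the groups. The 8 genes well above background summed to 2.19 to 2.50 in OF, 2.26 to 2.57 in YF and 2.26 to 3.12 in contemporary cows. The lowest contemporary sum, that of cow 1068, lay inside the range of OF. CD163, a scavenger receptor of macrophages, was well above background on 1 of the 11 arrays. Over the 11 females CTSC rose with the macrophage sum, as described below (r = 0.86, permutation p = 0.00083, adjusted 0.0092). Without cows 1128 and 1129 r was 0.54. The part of macrophages in the differences of CTSC between the groups was not tested.

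CTSH, an aminopeptidase, lies at chr21:25675908-25696632 (ENSBTAT00000014593). Its values were 3.04, 3.11, 3.30 and 2.79 in the 4 OF, and 3.85, 3.63, 3.19 and 3.02 in the 4 YF, each in the order of animals given for CTSC. OF tended to the lower end of the range, with overlap. The means of 3.06 ± 0.21 (SD, n = 4) and 3.42 ± 0.39 (SD, n = 4) differed by -0.37 on the log2 scale, with a 95% interval from -0.86 to 0.13 and an exact permutation p of 0.200, and by -0.28 without OF 2258. The contemporary cows read 3.30, 4.52 and 3.18, a mean of 3.67 ± 0.74 (SD, n = 3), and without cow 1128 their difference from YF turned from 0.24 to -0.18. Cow 1128 also had the highest macrophage sum, at 3.12. Over the 11 females CTSH and that sum gave r = 0.63 (permutation p = 0.0452, adjusted 0.148), and 0.23 without the 2 farthest females. The part of macrophages in the CTSH value of cow 1128 was not tested. The order of the means was the same as for CTSC, with overlap between all groups.

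CTSS, which degrades the invariant chain in cells that present antigen, lies at chr3:20024302-20047228 (ENSBTAT00000022774), 16440 bases from CTSK. OF 0233, 0234, 0245 and 2258 read 2.09, 1.64, 2.17 and 0.78. The YF were tightly grouped at 1.97, 2.22, 2.19 and 2.07, and so were the contemporary cows at 1.97, 2.19 and 2.18. The means of YF (2.11 ± 0.11, SD, n = 4) and of contemporary cows (2.11 ± 0.13, SD, n = 3) were equal to 2 decimals. The OF mean of 1.67 ± 0.64 (SD, n = 4) lay 0.44 below YF (95% interval of the difference -1.12 to 0.23; exact permutation p = 0.229). The low OF were 0234 and 2258, the females with high smooth muscle markers. The difference was -0.15 without OF 2258 and 0.014 without both. The neighbouring gene CTSK did not share this pattern.

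CTSK, the collagen-degrading cathepsin best known from osteoclasts, lies at chr3:19994998-20007861 (ENSBTAT00000028016). It varied most among the cathepsin members, over a log2 range of 2.02 across the 11 females. OF 0233, 0234, 0245 and 2258 read -1.22, -0.69, -2.03 and -0.01, which spans the whole range of the 11. The YF read -0.21, -0.92, -0.82 and -1.36, and the contemporary cows -1.95, -0.68 and -0.64. OF averaged -0.99 ± 0.85 (SD, n = 4), YF -0.83 ± 0.47 (SD, n = 4) and contemporary cows -1.09 ± 0.74 (SD, n = 3). OF differed from YF by -0.16 (95% interval -1.14 to 0.82), which became -0.49 without OF 2258, -0.80 without OF 0234 and 2258, and 0.14 on slide 2 alone. None of these passed limma at an unadjusted p of 0.05, and the sign was not stable.

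CTSZ, a carboxypeptidase also named cathepsin X, lies at chr13:57889707-57899205 (ENSBTAT00000025007). OF 0233, 0234, 0245 and 2258 read 3.58, 3.22, 3.91 and 2.89, the YF 3.16, 3.96, 3.64 and 3.28, and the contemporary cows 3.35, 3.50 and 3.63. The groups overlapped fully, with means of 3.40 ± 0.44 (SD, n = 4), 3.51 ± 0.36 (SD, n = 4) and 3.49 ± 0.14 (SD, n = 3). The OF and YF means differed by -0.11 (95% interval -0.71 to 0.49), which turned to 0.061 without OF 2258. The slides did separate. The 3 arrays of slide 1 read 3.64 to 3.96 and the 8 of slide 2 read 2.89 to 3.63, a split that 2% of 18682 transcripts shared. With the slide as a block the difference between OF and YF was 0.046.

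CTSB, an abundant peptidase of the lysosome, lies at chr8:7414945-7423429 (ENSBTAT00000036795). OF read 4.33, 4.67, 4.62 and 4.83, YF 4.82, 4.86, 4.54 and 4.20, and the contemporary cows 4.68, 4.77 and 4.49. The means of the 3 groups lay between 4.61 and 4.64, and OF and YF differed by 0.0044 with a 95% interval from -0.43 to 0.44, and by -0.067 without OF 2258. Its 2 probe sequences gave differences of opposite sign, with values from -0.053 to 0.058 over their 4 names.

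CTSD, the aspartic protease, lies at chr29:50352064-50361497 (ENSBTAT00000010022) and is not a target of cystatins. OF read 5.04, 5.13, 5.19 and 5.33, and YF 4.92, 5.20, 5.04 and 4.65. Among the cathepsin members it had the widest difference toward OF, at 5.17 ± 0.12 (SD, n = 4) against 4.95 ± 0.23 (SD, n = 4). The log2 difference was 0.22 (SE 0.16; 95% interval -0.14 to 0.57; exact permutation p = 0.200), and its sign held without OF 2258 (0.16) and on slide 2 alone (0.38). The contemporary cows read 5.06, 5.47 and 5.03, a mean of 5.19 ± 0.24 (SD, n = 3), close to OF. The order of the means was contemporary cows, OF and YF, with no neighbours separated.

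**Figure D2:**
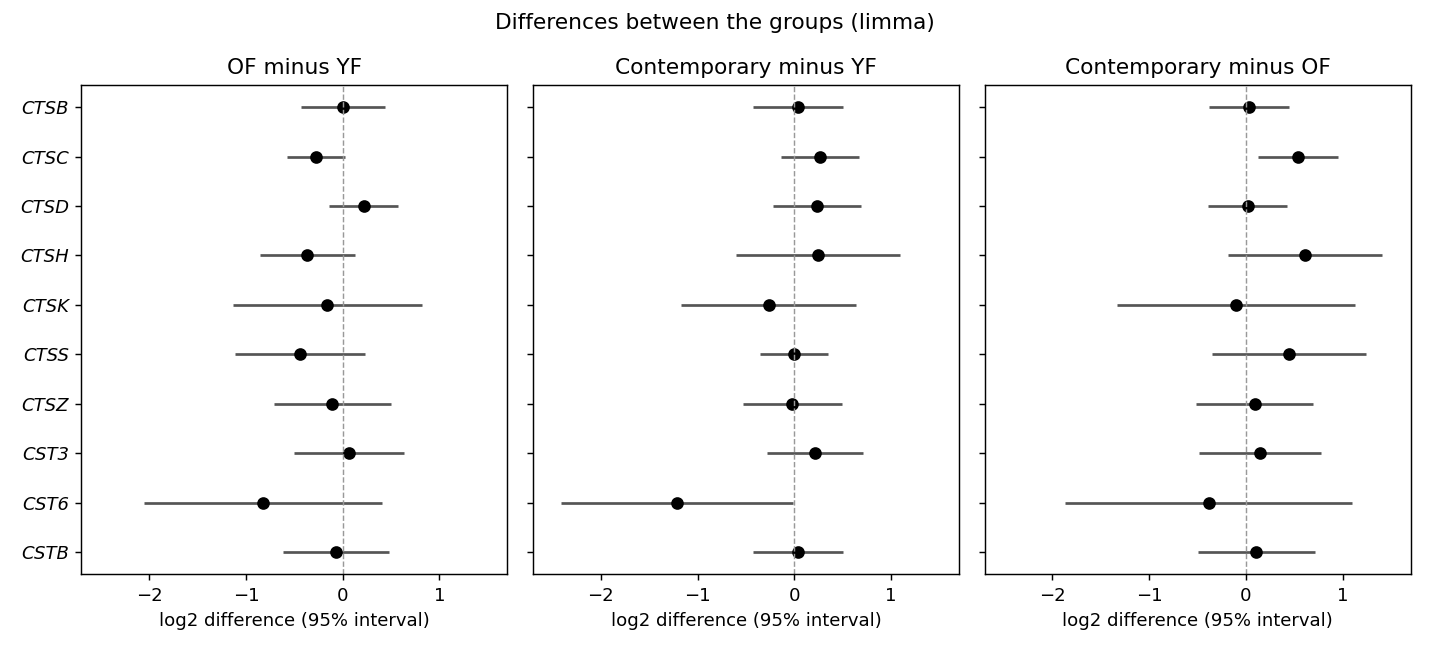
Log2 difference of each gene between OF and YF, contemporary cows and YF, and contemporary cows and OF (points), with the 95% interval from limma (lines) and a dashed line at no difference. The interval leaves 0 out for CST6 in contemporary cows against YF and for CTSC in contemporary cows against OF, and spans 0 for the other members in each panel.

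CST6, cystatin E/M, is a secreted inhibitor of legumain and of cysteine cathepsins. It lies at chr29:44766936-44768173 (ENSBTAT00000019583). Its 2 probes are printed to show that they are not independent readings, since they share 59 of their 60 bases, and the capitals mark the part both hold within the first 30.
CST6 probe 1: cAACATGGGCAGCAACAGCGACTACTACTA
CST6 probe 2: AACATGGGCAGCAACAGCGACTACTACTAc
CST6 spread more than any other member, over a log2 range of 3.09. OF 0233, 0234, 0245 and 2258 read 2.57, 1.32, 3.56 and 1.60, and YF 1069, 1070, 1072 and 1127 read 2.79, 4.03, 3.22 and 2.34. OF 0234 and 2258 lay below every YF, whereas OF 0245 exceeded 3 of them. OF averaged 2.26 ± 1.02 (SD, n = 4) and YF 3.09 ± 0.72 (SD, n = 4). The difference was -0.83 (SE 0.54; 95% interval -2.06 to 0.40), with an exact permutation p of 0.257 and an adjusted limma p of 0.999. Without OF 0245 it was -1.26 and below an unadjusted p of 0.05, and without OF 2258 it was -0.61.

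FCROS called CST6 lower in OF with an f-value of 0.0112 and a fold of 0.620 from the group means of intensity. It was not called without OF 0234 (f-value 0.0700), without OF 2258 (0.0557), without YF 1070 (0.0593), or when no ranks were trimmed (0.0333). In limma the difference was -0.026 when OF 0234 and 2258, the females with high smooth muscle markers, were both left out. Over the 11 females CST6 and the summed smooth muscle markers gave r = -0.48 (permutation p = 0.135, adjusted 0.256) and rho = -0.33. Without OF 0234 and 2258 r was -0.04. The part of smooth muscle in the difference of CST6 between OF and YF was not tested.

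Contemporary cows had the lowest CST6 mean of the 3 groups, at 1.88 ± 0.94 (SD, n = 3), from values of 0.94, 2.82 and 1.88. Against YF the log2 difference was -1.21 (SE 0.52), a fold of 0.431, with limma p = 0.0476 before and 0.9999 after adjustment and exact permutation p = 0.143. CST6 was the 1 member of 10 below an unadjusted p of 0.05 there, where 3.03% of 19993 transcripts passed it and 0% passed after adjustment. The groups overlapped for all 10 members, and did not for 3.83% of transcripts. That call ended when any one of cows 1068 or 1129 or YF 1069, 1070 or 1072 was left out, with the smallest difference without cow 1068 (-0.74). The slide moved with CST6. The 3 arrays of slide 1 read 3.22 to 4.03, and the 8 of slide 2, which held all 3 contemporary cows, read 0.94 to 2.82. Cow 1111, the contemporary cow on slide 1 that was left out, read 3.56. On slide 2 alone contemporary cows differed from YF by -0.68 and OF from YF by -0.73, neither below an unadjusted p of 0.05. With the slide as a block, these differences were -0.68 and -0.49.

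A second transcript, ENSBTAT00000064987 at chr29:44770865-44771529, lies 2691 bases from CST6 and has no gene name on the array. The study's list of genes differentially expressed between OF and YF names this transcript CST6 as well. Which of the transcripts carries the signal of the gene was therefore not settled here. By the annotation of the array it is not among the 10 genes, and it was read by probes of other sequence, of which bases 29 to 58 of one are shown because they hold the letters AATAAA (in capitals, found in 7.97% of the distinct probe sequences as printed on the array).
Neighbour of CST6, probe 2: cgtatctacggcAATAAAtcgctagcactg
It read 5.05, 3.81, 5.86 and 4.04 in the OF, 5.23, 6.34, 5.50 and 4.81 in the YF and 3.56, 5.11 and 4.40 in the contemporary cows. The females stood in nearly the same order as for CST6, with OF 0234 and 2258 and cow 1068 at the bottom. OF differed from YF by -0.78 (SE 0.50) and contemporary cows from YF by -1.12 (SE 0.45), with adjusted limma p of 0.999 and 0.9999. FCROS called it lower in OF, as it did CST6, with an f-value of 0.0145 and a fold of 0.634. Over the 11 females its deviations from the group means correlated with those of CST6 at r = 0.997, a description of a pair that shares arrays, scaling and a place in the genome. The slides separated here as well, at 5.50 to 6.34 and 3.56 to 5.23.

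CST3, cystatin C, is the secreted cystatin of most body fluids and lies at chr13:42562167-42566091 (ENSBTAT00000000790). Its 2 probes sit at different places of the message, one over an ATG and the other over an AATAAA, both in capitals in bases 31 to 60.
CST3 probe 1: cagtctttttgcatccgagagaccATGgtg
CST3 probe 2: tgctattttactcAATAAAaaagtaacagc
Their log2 differences between OF and YF were 0.063 and 0.067. OF 0233, 0234, 0245 and 2258 read 2.71, 3.23, 2.91 and 3.71, and YF 1069, 1070, 1072 and 1127 read 3.52, 2.95, 2.94 and 2.89. OF 2258 was the highest of the 11 and YF 1069 the highest of its group, the same pair in which epithelial markers were lowest. The mean was 3.14 ± 0.44 (SD, n = 4) for OF and 3.08 ± 0.30 (SD, n = 4) for YF, a difference of 0.065 (95% interval -0.51 to 0.64), and -0.13 without OF 2258. Contemporary cows read 3.45, 3.41 and 3.01, a mean of 3.29 ± 0.24 (SD, n = 3), and the 3 groups overlapped.

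CSTB, cystatin B or stefin B, was represented by 2 transcripts on chromosome 1 that lie 23226 bases apart, ENSBTAT00000000683 at chr1:146555393-146558844 and ENSBTAT00000024208 at chr1:146527931-146532166. Their first probes are near-identical, so the signal of either is uncertain, and part of each is shown to make that visible. Over their 60 bases the probes differ at 1 position, C8G, counted from 1 at the left end with the base of the first copy given first and the differing base in capitals.
CSTB probe 1, ENSBTAT00000000683: actacttCatcaaggttcaagtggacgagg
CSTB probe 1, ENSBTAT00000024208: actacttGatcaaggttcaagtggacgagg
As a description over the 11 females, these 2 probes correlated at r = 0.99. The second probe of ENSBTAT00000024208 correlated with the first probe of its own transcript at only r = 0.26, and with the first probe of the other copy at r = 0.27. The value of ENSBTAT00000024208 is thus a mean of 2 unlike readings, and ENSBTAT00000000683, with the higher mean, was used for the gene.

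For ENSBTAT00000000683 OF read 3.82, 3.66, 4.20 and 3.18, YF 3.47, 4.01, 3.62 and 4.01, and contemporary cows 3.60, 3.99 and 3.87. OF 2258 was the lowest of the 11 and OF 0245 the highest, so that OF spanned the whole range. The means were 3.71 ± 0.42 (SD, n = 4), 3.78 ± 0.27 (SD, n = 4) and 3.82 ± 0.20 (SD, n = 3). OF and YF differed by -0.065 (95% interval -0.61 to 0.48), and by 0.11 without OF 2258. For ENSBTAT00000024208 the corresponding difference was -0.11 (95% interval -0.67 to 0.45).

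**Figure D3:**
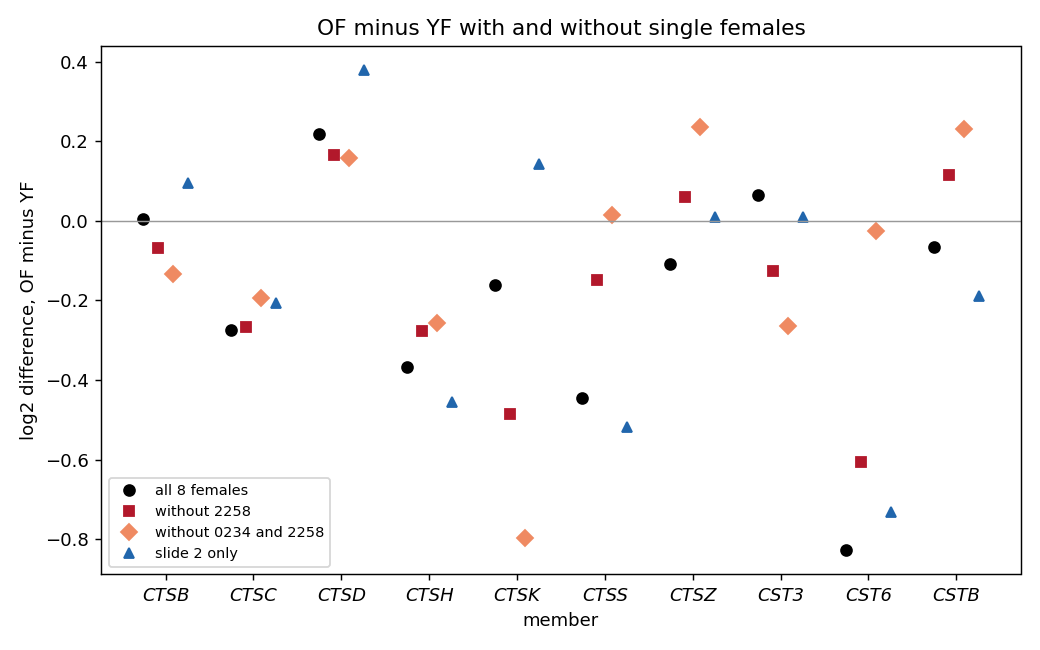
Log2 difference between OF and YF (vertical axis) for each gene with all 8 females, without OF 2258, without OF 0234 and 2258, and on slide 2 alone. CTSC and CTSH stay below 0 and CTSD above it in all 4, CST6 moves from -0.83 to -0.026, and CTSZ, CST3, CSTB, CTSS, CTSK and CTSB change sign in at least 1.

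Across females, 1 of the 45 pairs of members passed after adjustment, CTSS with CTSZ. They gave Pearson r = 0.77 (p = 0.00023, adjusted 0.0103) and Spearman rho = 0.86 (p = 0.00125, adjusted 0.0562) over 11 females. Without the 2 females farthest from the median of CTSS r was 0.80, and on slide 2 alone (8 arrays) 0.85, while slide 1 held too few arrays. CTSZ and CSTB gave r = 0.78 and rho = 0.64, CTSS and CSTB r = 0.77 and rho = 0.56, and CST3 and CSTB r = -0.70 and rho = -0.70. The permutation p of these 3 pairs was 0.00458, 0.00532 and 0.0158 for r and 0.0413, 0.0776 and 0.0200 for rho, and none passed 0.05 after adjustment over the 45 pairs (0.0798, 0.0798 and 0.0942 for r). Without the 2 farthest females their r was 0.62, 0.63 and -0.34, so the last rests largely on those females. CST3 also paired with CTSZ at r = -0.72 (permutation p = 0.0130) and rho = -0.61, with CTSS at r = -0.65 (permutation p = 0.0137) and rho = -0.47, and with CTSB at r = 0.70 (permutation p = 0.0167) and rho = 0.74, each with an adjusted p of 0.0942 for r. Without the 2 farthest females their r was -0.58, -0.51 and 0.57, and on slide 2 alone -0.69, -0.59 and 0.92. The permutation p for rho was 0.0512, 0.147 and 0.0124, and 0.231, 0.346 and 0.150 after adjustment. CTSZ and CST6, the pair whose slides did not overlap, gave r = 0.71 (permutation p = 0.0144, adjusted 0.0942) and rho = 0.69 (permutation p = 0.0225, adjusted 0.168), but r was 0.27 on slide 2 alone. All members share the array and its scaling in each female.

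CSTB and CTSZ followed the epithelial markers, and CST3 opposed them. Of 40 relations between the 10 members and the summed levels of epithelial, stromal, smooth muscle and macrophage markers, 5 passed 0.05 after adjustment for Pearson r and 4 for Spearman rho, of which 2 passed for both. CSTB rose with the epithelial sum at r = 0.89 (permutation p = 7e-05, adjusted 0.0028) and rho = 0.88 (p = 0.00065, adjusted 0.0108). It held at 0.77 without the 2 farthest females, OF 2258 and YF 1069, and at 0.93 on slide 2. CST3 fell with the same sum at r = -0.86 (p = 0.00018, adjusted 0.0036) and rho = -0.87 (p = 0.00081, adjusted 0.0108), at -0.76 without those 2 females and -0.83 on slide 2. CTSZ rose with it at r = 0.82 (p = 0.00092, adjusted 0.0092) and rho = 0.75 (p = 0.0112, adjusted 0.0642), and at 0.65 without those 2 females and 0.83 on slide 2.

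CTSC rose with the macrophage sum at r = 0.86 (permutation p = 0.00083, adjusted 0.0092) and rho = 0.72 (p = 0.0152, adjusted 0.0696) over 11 females. The value was 0.54 without cows 1128 and 1129, the 2 farthest, and 0.88 on slide 2. CTSS fell with the smooth muscle sum at r = -0.91 (p = 0.00451, adjusted 0.0361), but rho was -0.48 (p = 0.137) and r was -0.03 without OF 0234 and 2258, so this relation rests on those females. On slide 2, which held both, it was -0.94. By rank alone, CTSS rose with the macrophage sum (rho = 0.89, permutation p = 0.00057, adjusted 0.0108), where r was 0.53 (permutation p = 0.102, adjusted 0.249), 0.71 without the 2 farthest females and 0.56 on slide 2. CST3 likewise rose with the stromal sum by rank (rho = 0.84, permutation p = 0.00247, adjusted 0.0247), where r was 0.65 (permutation p = 0.0296, adjusted 0.127), 0.44 without the 2 farthest females and 0.60 on slide 2. Such correlations were computed over all 3 groups; after subtraction of the group means the 5 values of r that passed were 0.89 for CSTB, -0.91 for CST3, 0.81 for CTSZ, 0.90 for CTSC and -0.87 for CTSS.

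**Figure D4:**
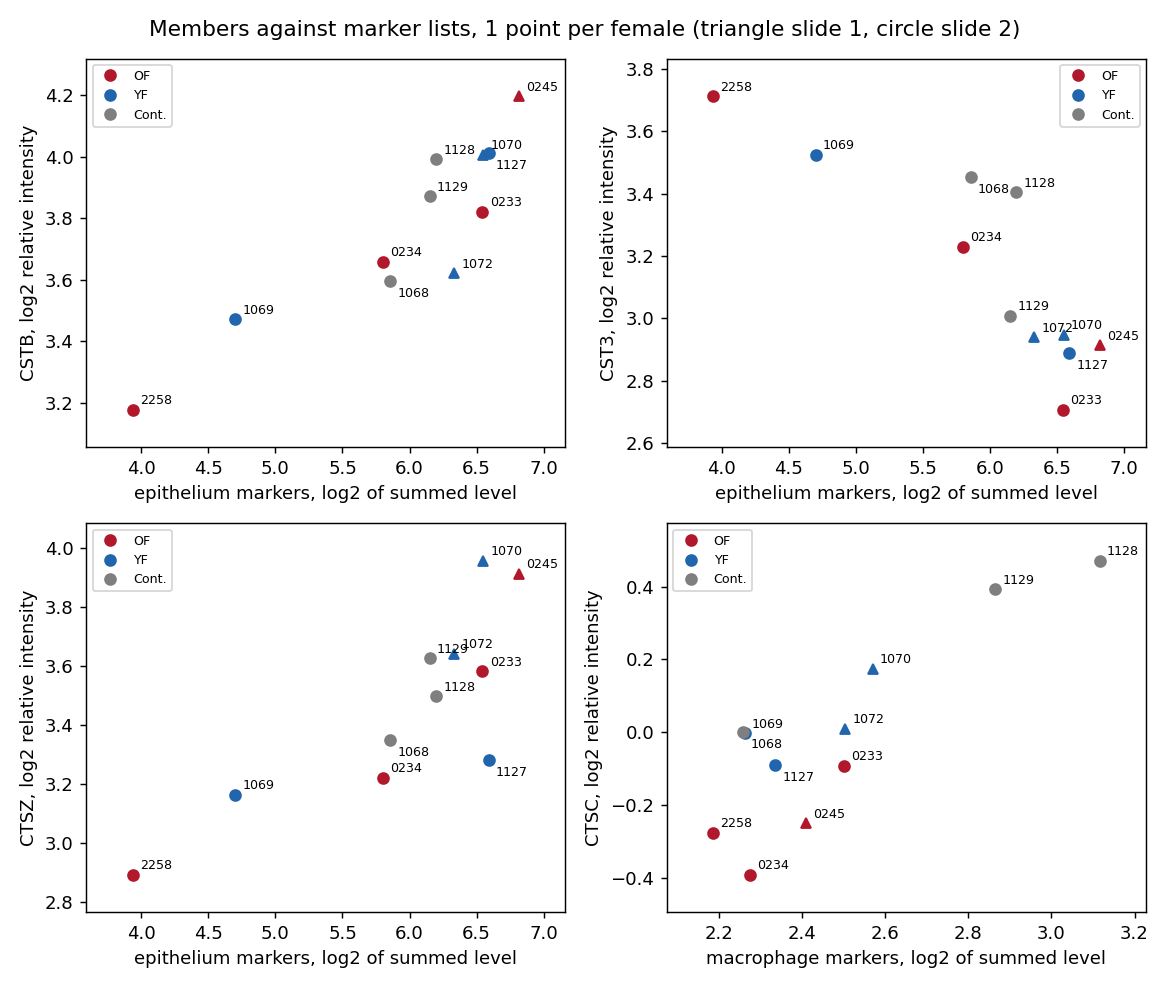
Level of CSTB, CST3 and CTSZ against the log2 summed level of 11 epithelial markers, and of CTSC against that of 8 macrophage markers, with 1 point per female named by animal (OF, YF and contemporary cows, n = 11). CSTB and CTSZ are lowest and CST3 highest in OF 2258, where the epithelial sum is 3.94, and CTSC is highest in cows 1128 and 1129, where the macrophage sum is largest.

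None of the other genes of the pathway passed after adjustment. Of 6 other cathepsins on the array (CTSA, CTSF, CTSL, CTSO, CTSV and CTSW), the mean was higher in OF than YF for 4 and lower for 2, with a median log2 difference of 0.043, and 0.14 without OF 2258. CTSL, a broad endopeptidase, gave the widest gap at 0.50, which was 0.75 without OF 2258, and 0 of the 6 passed an unadjusted p of 0.05. Of 10 other cystatins and cystatin-domain proteins on the array, 4 were measured above background in OF or YF, 3 with a higher and 1 with a lower mean in OF, and 0 passed. Without OF 2258 these counts were 2 and 2. Cystatin A (CSTA) was well above background on 3 of the 11 arrays.

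Of 39 lysosomal genes, 30 had a lower and 9 a higher mean in OF, with a median of -0.13. Most of that median lay with OF 2258, without which 25 were lower and 14 higher with a median of -0.029, and without OF 0234 and 2258 16 were lower and 23 higher with a median of 0.012. IDUA, which degrades glycosaminoglycans, was the only one past an unadjusted p of 0.05 (log2 difference 0.57, SE 0.25, exact permutation p = 0.114, adjusted limma p = 0.999). In contemporary cows 28 of the 39 had a higher mean than in OF, with a median of 0.13, against 21 of 39 and a median of 0.027 without OF 2258. The groups did not overlap for 2 of the 39, a share near the 5.79% of all transcripts. These were LIPA, the acid lipase, higher by 0.31, and MCOLN1, a lysosomal cation channel, higher by 0.28, each with an exact permutation p of 0.0571 and an adjusted limma p of 0.912. LIPA did not overlap between contemporary cows and YF either, at 0.26 higher (exact permutation p = 0.0571). Legumain (LGMN), the target of CST6, differed between OF and YF by -0.58 (exact permutation p = 0.343), by -0.22 without OF 2258 and by 0.13 without OF 0234 and 2258.

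Other cell types were read from their markers. Summed log2 levels ranged over the 11 females from 2.05 to 3.66 for 6 endothelial genes, 0.78 to 1.99 for 6 leukocyte genes, -1.47 to -0.38 for 4 mast cell genes, and 2.96 to 4.12 for 3 erythrocyte genes. Of the trophoblast genes, PRP1 was well above background on 0 of the 11 arrays and PAG1 on 2, those of OF 0234 and 2258. Stromal markers summed to 6.86 to 7.51 in OF, 7.17 to 8.26 in YF and 7.47 to 7.90 in contemporary cows.

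Among transcripts with a gene name, those whose deviations from the group means were most like each member were taken from 18682 transcripts well above background on all 11 arrays, with Pearson r over 11 females as the measure. CTSS was followed most closely by KRTCAP3, UBE2Q1 and ALPL (r = 0.98 each), CTSZ by ACADVL, DUS1L and ZBTB17 (r = 0.98 each), and CSTB by SLC44A4, CFAP410 and KIF24 (r = 0.97 to 0.98). For CST3 they were CDV3, ARF5 and NACAD (r = 0.98 to 0.99), and for CTSK SEPTIN10, MAP3K12 and SUPT3H (r = 0.98 each). CTSB was nearest to DST, COL6A2 and C1QTNF1 (r = 0.96 to 0.97), CTSD to CACHD1, PDIA4 and MSLN (r = 0.93 to 0.94), and CTSH to CD209, MPZL1 and LAMA3 (r = 0.92 to 0.94). CST6 was nearest to TAF4, RARA and MYL3 (r = 0.94 to 0.96), after its unnamed neighbour described above, and CTSC to the probe set named bta-mir-2472 (r = 0.98), NPNT (0.93) and SAMD3 (0.92). As the highest of 18682 coefficients over so few points, these are a description.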

How the data were processed

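The authors deposited the Agilent Feature Extraction (10.7.3.1) output of each array, per the file headers a processed intensity per spot after spatial and multiplicative detrending, with surrogates for dim spots and no normalization between arrays. RNA integrity numbers were 7 to 9.5. The replicate was the female, and how few arrays there were limits the precision; p-values measure the spread between these females. Log2 of the processed intensity minus the 75th percentile of the array was computed here, the 66 probes that carried any outlier flag were dropped, and the rest were averaged per transcript (26323). limma 3.58.1 (R 4.3.3, two-sided) was run on transcripts that all arrays of at least one compared group detected above background, with Benjamini-Hochberg adjustment over all transcripts tested. FCROS was coded here on all transcripts: 16 ratios, a share of 0.25 of ranks trimmed at each end, f-values beyond 0.025 and 0.975, fold of 1.5. An f-value places the mean rank of a transcript among those of all transcripts. It is not a p-value and does not measure the spread between females. Single members were tested with an exact permutation test, and correlations with 100000 permutations, in Python. The limma and FCROS steps of OF against YF were tested on simulated arrays, with differences wider than those of the members. The permutation tests, the correlations and the comparisons with contemporary cows were not simulated.

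The genes named are the 10 members, matched by symbol in the array annotation, with the transcript of the highest mean where there were several, members of the pathway lists past an unadjusted p of 0.05 or without overlap, and the 3 named transcripts most like each member. CTSL, CTSA, CSTA, LGMN and the other listed genes were named after their values were seen. The members and lists were chosen with earlier results of these data known. Alternatives were normexp (offset 50), quantile normalization, median centring, the brightest probe, no filter on dim probes, no trimming of ranks, FCROS without dim transcripts, the slide as a block or slide 2 only, all 3 groups in 1 fit, array weights, cow 1111 included, and each female left out. Leaving out OF 0234 and 2258 together, and leaving females out of the lists, was chosen after the data were seen.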

Additional observations from a re-analysis of the deposited data

Results flagged for a closer look

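In 2 of 44 groups of 4 females a single animal lay far from the others, by Dixon's ratio of its gap to the whole range, and chance flags about 1 in 20 such groups. The 44 include the groups of the trophoblast list, which held 0 genes and could not be flagged. Both flagged animals were YF 1069. Its CST3 value of 3.52 was above the next YF at 2.95, a ratio of 0.910. Its epithelial marker sum of 4.70 was below the next YF at 6.33, a ratio of 0.863. Over the 11 females CST3 fell with the epithelial sum, as given above (r = -0.86, permutation p = 0.00018, adjusted 0.0036). Without OF 2258 and YF 1069 r was -0.76. Whether the sampled share of epithelium accounts for the CST3 value of YF 1069 was not tested.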

How the results depend on the processing

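Of 530 log2 differences of members under the alternatives, 462 kept their sign and 68 changed sign. The smallest adjusted limma p of a member over all alternatives was 0.111, so none passed the adjusted threshold. These counts do not cover the calls at an unadjusted p of 0.05, some of which changed with the setting, as given below. CTSC kept its sign in each of the 3 comparisons (OF minus YF from -0.40 to -0.19), as did CTSD and CTSH for OF minus YF (0.11 to 0.38 and -0.50 to -0.22). The cause of a change of sign was not tested. For OF minus YF, CTSB was -0.083 with quantile normalization, -0.040 with the brightest probe and -0.13 without OF 0234 and 2258. With the slide as a block CTSZ was 0.046, CST3 -0.0050 and CSTB 0.015. On slide 2 alone CTSK was 0.14 and CTSZ 0.0089, and with array weights CTSK was 0.067. Without OF 0234 and 2258 CTSS was 0.014, CTSZ 0.24, CST3 -0.27 and CSTB 0.23. For contemporary cows minus YF, CTSS was 0.0095 with normexp, 0.041 with median centring, 0.055 with the brightest probe and 0.089 with the slide as a block or on slide 2 alone. CTSZ was 0.024 with median centring, 0.27 in both slide settings and 0.032 with cow 1111. CTSB was -0.019 with the brightest probe, and CTSK 0.037 with array weights. For contemporary cows minus OF, CST6 was 0.047 in both slide settings, 0.69 with array weights and 0.035 with cow 1111. CTSK was 0.028 with array weights, and without OF 0234 and 2258 CTSK was 0.53, CTSS -0.017, CTSZ -0.25 and CSTB -0.19.

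With each female left out in turn, for OF minus YF the differences ranged from -0.13 to 0.099 for CTSB, -0.49 to 0.19 for CTSK, -0.28 to 0.061 for CTSZ, -0.13 to 0.21 for CST3 and -0.23 to 0.11 for CSTB. For contemporary cows minus YF they ranged from -0.096 to 0.12 for CTSB, -0.18 to 0.48 for CTSH, -0.49 to 0.16 for CTSK, -0.050 to 0.070 for CTSS, -0.14 to 0.13 for CTSZ and -0.061 to 0.15 for CSTB. For contemporary cows minus OF they ranged from -0.061 to 0.11 for CTSB, -0.12 to 0.096 for CTSD, -0.45 to 0.32 for CTSK, -0.080 to 0.26 for CTSZ, -0.86 to 0.085 for CST6 and -0.072 to 0.27 for CSTB. The count of members past an unadjusted p of 0.05 ranged from 0 to 1 in each comparison, and so did the count called by FCROS. Transcripts past the adjusted threshold ranged from 0 to 1 for contemporary cows against YF and against OF.

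For OF minus YF, members past an unadjusted p of 0.05 numbered 1 with normexp (CTSC) and 3 with array weights (CTSC, CTSS and CST6). For contemporary cows minus YF they numbered 0 with quantile normalization, either slide setting, all 3 groups in 1 fit or cow 1111. For contemporary cows minus OF they numbered 2 with array weights (CTSC and CTSH) and 0 without OF 0234 and 2258. Transcripts past the adjusted threshold against YF numbered 1 with quantile normalization or array weights, 2 with all groups in 1 fit and 4 with cow 1111, and against OF 26 with array weights and 2 with cow 1111. FCROS called 548 transcripts with normexp, and 0 members without trimming. No paired analysis was possible because the groups share no replicate numbers.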

Other observations

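Cow 1111, the contemporary cow that the submitters left out for a divergent phenotype, read 4.63 for CTSB, 0.09 for CTSC, 5.13 for CTSD, 2.99 for CTSH, -1.12 for CTSK, 2.05 for CTSS and 3.70 for CTSZ. For the inhibitors it read 3.06 for CST3, 3.56 for CST6 and 3.79 for CSTB. It lay inside the range of the 3 other contemporary cows for 7 of the 10 genes, above it for CTSZ and CST6 and below it for CTSH. For all 10 it lay inside the range of the 11 females compared. It was the only contemporary cow on slide 1.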
